A study of Rattus norvegicus with 12 samples.

Results

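The genes described here are the repressors of the circadian clock, namely Nr1d1 and Nr1d2, Per1, Per2 and Per3, and Cry1 and Cry2. Each was taken as the probe set that the platform annotation gives to that symbol alone, and where a gene had several the brightest over the 12 arrays was to be kept. Of the 7 listed genes 6 were measured, each by 1 probe set, out of 13215 genes with such a probe set, and Nr1d2 has no value here. The family was chosen by its measured differences between these diets, above all those of Nr1d1 and Per2 against control, and the probe sets by their mean level. The values below are therefore a description of these 12 livers.

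Livers came from Sprague Dawley rats kept individually under a light-dark cycle, each hybridised to 1 Affymetrix whole-transcript array. In 1 group 4 rats ate NO-naproxen, naproxen coupled to a nitric oxide-donating group, at 550 mg per kg of diet. In another 4 rats ate naproxen, an inhibitor of both cyclooxygenases, at 400 mg per kg, and 4 controls ate the diet with no drug, all for 7 days. The doses by weight differ between the drugs. The sources used here state neither the age and sex of the rats nor the hour at which livers were taken. The replicates are labelled biological, 1 rat each.

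The clock is a loop of transcription with a period near a day. The activators BMAL1 and CLOCK, or in place of CLOCK its relative NPAS2, bind E-box sequences and switch on the Per, Cry and Nr1d genes. PER and CRY proteins then block the activators, while the nuclear receptors made from Nr1d1 and Nr1d2, REV-ERB alpha and beta, repress Bmal1. In rodent liver the transcripts of these genes climb and fall every day at different hours, with Nr1d1 high in the light phase, Per2 around nightfall and Cry1 later in the night, and meals and glucocorticoids also act on them.

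The start regions of Nr1d1 and Per2 are shown because these genes had the widest differences between naproxen and control, with opposite signs. Each runs 5′ to 3′ on the gene's strand from 250 bases before to 50 bases after an annotated start (RefSeq, GRCr8), and capitals mark the motifs found. For Nr1d1, which has 2 starts in the table, they lie at chr10:84231763-84232062 and chr10:84229405-84229704 on the minus strand, and for Per2 at chr9:99496944-99497243 on the minus strand.
Nr1d1, start 1: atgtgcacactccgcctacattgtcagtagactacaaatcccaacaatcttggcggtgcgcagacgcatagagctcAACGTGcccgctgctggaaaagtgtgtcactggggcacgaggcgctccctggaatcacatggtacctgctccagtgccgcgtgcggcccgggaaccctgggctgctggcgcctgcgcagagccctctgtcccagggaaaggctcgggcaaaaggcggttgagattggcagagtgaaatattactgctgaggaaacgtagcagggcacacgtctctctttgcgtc
Nr1d1, start 2: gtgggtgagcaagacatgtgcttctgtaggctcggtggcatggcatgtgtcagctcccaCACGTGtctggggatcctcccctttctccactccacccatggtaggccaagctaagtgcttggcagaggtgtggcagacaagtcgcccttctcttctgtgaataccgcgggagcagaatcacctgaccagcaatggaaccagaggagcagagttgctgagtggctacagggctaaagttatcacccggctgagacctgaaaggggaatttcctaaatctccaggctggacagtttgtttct
Per2: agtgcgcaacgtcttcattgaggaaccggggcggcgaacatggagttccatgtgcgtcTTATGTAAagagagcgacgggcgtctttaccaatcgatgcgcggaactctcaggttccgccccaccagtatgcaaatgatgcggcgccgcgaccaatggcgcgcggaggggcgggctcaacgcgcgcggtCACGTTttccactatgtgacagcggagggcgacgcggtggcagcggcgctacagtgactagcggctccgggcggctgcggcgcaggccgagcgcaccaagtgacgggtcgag
The motifs searched on both strands were the E-box CACGTG, its variant CACGTT, the D-box TTANGTAA bound by DBP, TEF, HLF and NFIL3, the nuclear receptor half-site AGGTCA and the cyclic AMP response element TGACGTCA. No match overlapped another. The variant E-box stood on the opposite strand, and so as AACGTG in the sequence shown, from base -174 at the first Nr1d1 start, and the canonical E-box from base -191 at the second. Per2 held the variant E-box from base -62 and a D-box, TTATGTAA, from base -192. Of 33469 promoter windows of the same length 6.42% held the canonical E-box, 4.83% the variant, 2.24% the D-box, 16.2% the half-site and 1.83% the cyclic AMP element. Of the other genes, the window of Cry2 held the variant E-box from base -212 on the opposite strand and that of Nr1d2 a half-site from base -187. The windows of Per1 and Per3 held none of these letters, and Cry1 had no window to search.

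Nr1d1 (Entrez Gene 252917) was brighter with either drug than in controls. Its deposited intensity was 257, 988, 1467 and 492 in NO-naproxen replicates 1 to 4, and 539, 770, 892 and 493 in naproxen replicates 1 to 4. In control replicates 1 to 4 it was 343, 155, 137 and 166. All 4 naproxen livers lay above all 4 controls, while the NO-naproxen livers spread most widely and the lowest of them lay below the highest control. On the scale used for the tests, log2 of the intensity plus 16, the means were 9.40 ± 1.08 with NO-naproxen, 9.39 ± 0.40 with naproxen and 7.67 ± 0.56 in controls (SD, n = 4 each). The log2 fold change against control was 1.73 ± 0.42 (SE) for NO-naproxen, a 3.32-fold difference, and 1.72 ± 0.42 for naproxen, a 3.30-fold difference. Neither passed limma's test after Benjamini-Hochberg adjustment over all 19418 probe sets (adjusted p = 0.468 and 0.381). With limma's array weights, which give less weight to noisier arrays, the NO-naproxen difference was 1.10. The highest weights went to NO-naproxen replicate 1 (2.19), the dimmest drug liver for Nr1d1, and control replicate 1 (1.83), the brightest control. NO-naproxen replicate 3, the brightest liver, had a weight of 0.56.

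Per2 (Entrez Gene 63840), whose protein partners the CRY proteins in blocking the activators, was dimmer with either drug. Its intensity was 123, 190, 136 and 88.1 in NO-naproxen replicates 1 to 4 and 124, 83.9, 58.0 and 116 in naproxen replicates 1 to 4. Controls had 126, 371, 359 and 324, so that 3 of them lay far above every drug liver and replicate 1 lay among those. All 4 naproxen livers were below all 4 controls, though the highest of them, at 124, almost met the 126 of control replicate 1. The log2 means were 7.19 ± 0.40 with NO-naproxen, 6.76 ± 0.42 with naproxen and 8.18 ± 0.69 in controls (SD, n = 4 each). The log2 fold change was -0.99 ± 0.31 (SE) for NO-naproxen against control and -1.42 ± 0.31 for naproxen against control (limma, adjusted p = 0.468 and 0.381). After median centring the naproxen and control arrays overlapped.

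Per1 (Entrez Gene 287422), known to respond quickly to glucocorticoids and cyclic AMP, differed in the opposite direction to Per2 with NO-naproxen. Its intensity was 287, 579, 453 and 215 with NO-naproxen, 352, 199, 251 and 226 with naproxen, and 526, 117, 141 and 90.0 in controls (replicates 1 to 4). Every drug liver was above control replicates 2, 3 and 4, and control replicate 1 had the second highest value of the 12. The control SD of 1.06 log2 units was accordingly the widest of the 3 diets, against 0.61 with NO-naproxen and 0.33 with naproxen. The log2 fold change was 1.01 ± 0.41 (SE) for NO-naproxen against control and 0.52 ± 0.41 for naproxen against control (limma, adjusted p = 0.468 and 0.563 in that order). Leaving out NO-naproxen replicate 2 or 3 or control replicate 2, 3 or 4 brought the NO-naproxen difference to between 0.74 and 0.93, with an unadjusted p above 0.05. Without the 2 arrays of narrowest signal spread, control replicates 3 and 4, the value was 0.48 for NO-naproxen and -0.0048 for naproxen, so no direction is given for naproxen.

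Per3 (Entrez Gene 78962), the third PER protein, gave little signal, and its naproxen mean of 6.33 ± 0.18 lay under 6.44, the level below which 95% of the 970 olfactory and vomeronasal receptor probe sets lay. Intensities were 66.3, 142, 121 and 52.8 with NO-naproxen, 78.8, 60.7, 54.3 and 65.0 with naproxen, and 116, 72.7, 104 and 84.7 in controls. The NO-naproxen livers held the 2 highest values of the 12 and also the lowest. The log2 fold change was -0.05, with a 95% interval of -0.56 to 0.46, for NO-naproxen against control and -0.44, from -0.96 to 0.07, for naproxen against control.

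Cry1 (Entrez Gene 299691), the cryptochrome that REV-ERB alpha is known to repress, was dimmer with both drugs. Its intensity was 428, 391, 241 and 287 with NO-naproxen, 394, 292, 241 and 387 with naproxen, and 357, 778, 558 and 585 in controls (replicates 1 to 4). Control replicates 2, 3 and 4 were above all 8 drug livers and replicate 1 was among them, as for Per2. The log2 means were 8.43 ± 0.37 with NO-naproxen, 8.40 ± 0.33 with naproxen and 9.14 ± 0.45 in controls (SD, n = 4 each). Against control the log2 fold change was -0.72 ± 0.25 (SE) for NO-naproxen and -0.74 ± 0.25 for naproxen (limma, adjusted p = 0.468 and 0.381). With array weights the difference was -0.42 for NO-naproxen and -0.56 for naproxen, both under 1.5-fold. Those weights were 1.83 for control replicate 1, the dimmest control, and 0.48 for control replicate 2, the brightest. Without control replicate 2 it was -0.55 for NO-naproxen and -0.58 for naproxen, and without NO-naproxen replicate 3 it was -0.57 for NO-naproxen, all under 1.5-fold as well.

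Cry2 (Entrez Gene 170917), the other cryptochrome, varied as much within a diet as between diets. Intensities ran from 580 to 818 with NO-naproxen, from 536 to 868 with naproxen and from 545 to 1047 in controls. The log2 fold change was -0.05, with a 95% interval of -0.50 to 0.41, for NO-naproxen against control and -0.17, from -0.63 to 0.28, for naproxen against control. Its level followed the spread of each array, the interquartile range of its log2 values, more closely than that of any other of the 6 genes. After subtraction of group means the correlation was 0.74 over 12 arrays, given as a description. With that spread as a covariate the log2 fold change was -0.35 for NO-naproxen and -0.45 for naproxen.

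**Figure D1:**
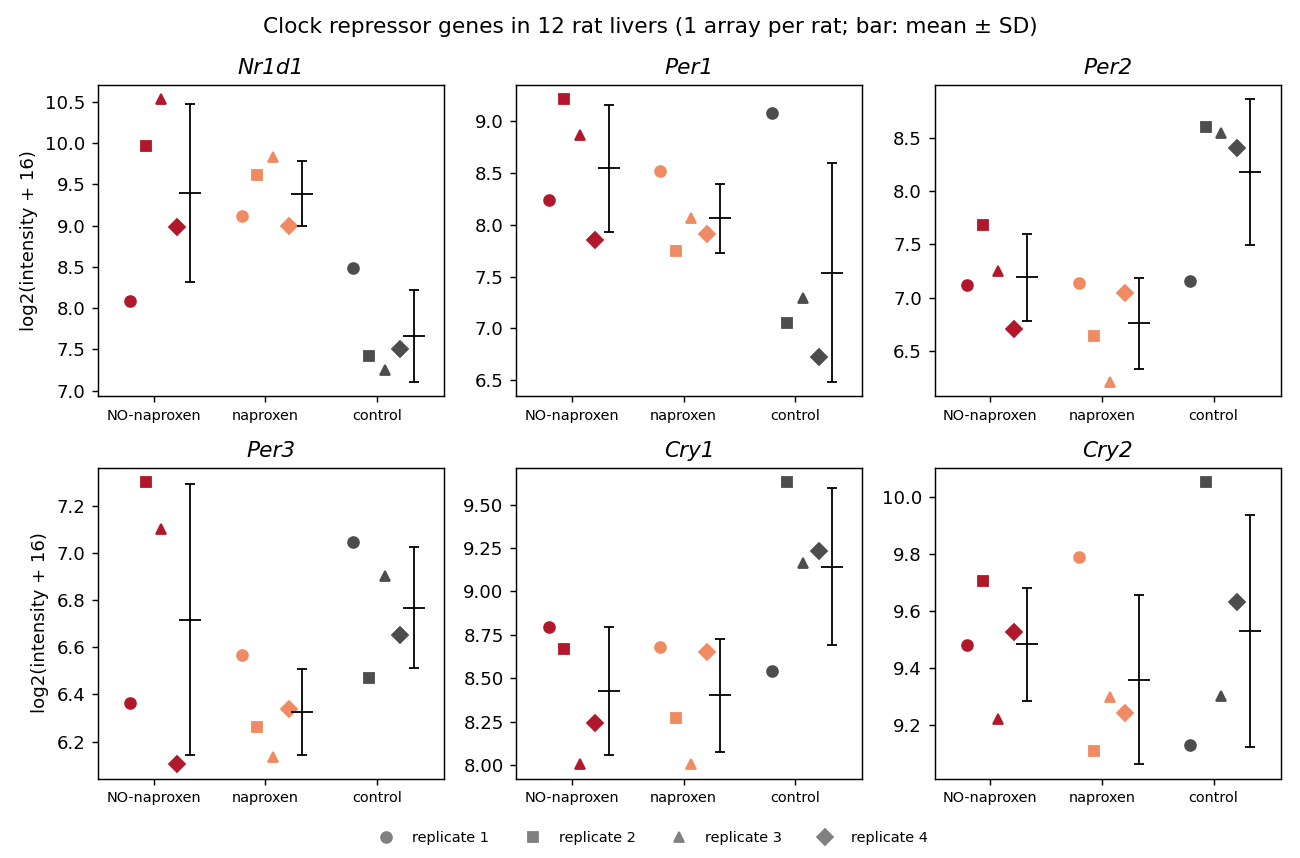
Log2 of deposited intensity plus 16 for 6 clock repressor genes in the liver of each rat, by diet, with symbols for replicates 1 to 4 and a bar for the mean ± SD (n = 4). Control replicate 1, the dark circle, is the lowest or highest control in all 6 panels, and so outside the range of the other 3. Nr1d1 and Per2 have the widest gaps between naproxen and control means.

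Counted over the genes, none of the 6 passed the adjusted threshold of 0.05 in limma against control with either drug, as was so for 0% of all probe sets. At an unadjusted p under 0.05 there were 4 of 6 for NO-naproxen and 3 of 6 for naproxen, against 10.4% and 12.7% of all probe sets. The series text sets a looser criterion, an unadjusted p under 0.05 with a change of at least 1.5-fold. By it NO-naproxen against control had 2 genes higher, Nr1d1 and Per1, and 2 lower, Per2 and Cry1, where 3.8% of all probe sets passed (1.78% higher and 2.02% lower). Naproxen against control had 1 higher, Nr1d1, and 2 lower, Per2 and Cry1, where 5.85% passed (0.875% higher and 4.97% lower). After quantile normalization and after median centring the naproxen split over all probe sets was 371 higher to 603 lower and 463 to 483, in place of 170 to 965. Centring gave 632 to 266 in place of 346 to 392 for NO-naproxen. The same 4 genes with NO-naproxen and the same 3 with naproxen passed under both scalings. Arrays did not overlap for 2 of the 6 genes with naproxen, Nr1d1 and Per2, against 4.5% of all probe sets, and for 0 of 6 with NO-naproxen, against 3.35%. Because the genes were picked with these differences in view, nothing is read from these shares. The 2 comparisons also share their 4 control livers. The median log2 fold change of the 6 genes was -0.05 for NO-naproxen, against 0.00044 over all probe sets, and -0.31 for naproxen, against -0.03 over all. After median centring the naproxen median over all probe sets was 0.08, a shift of 0.12.

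**Figure D2:**
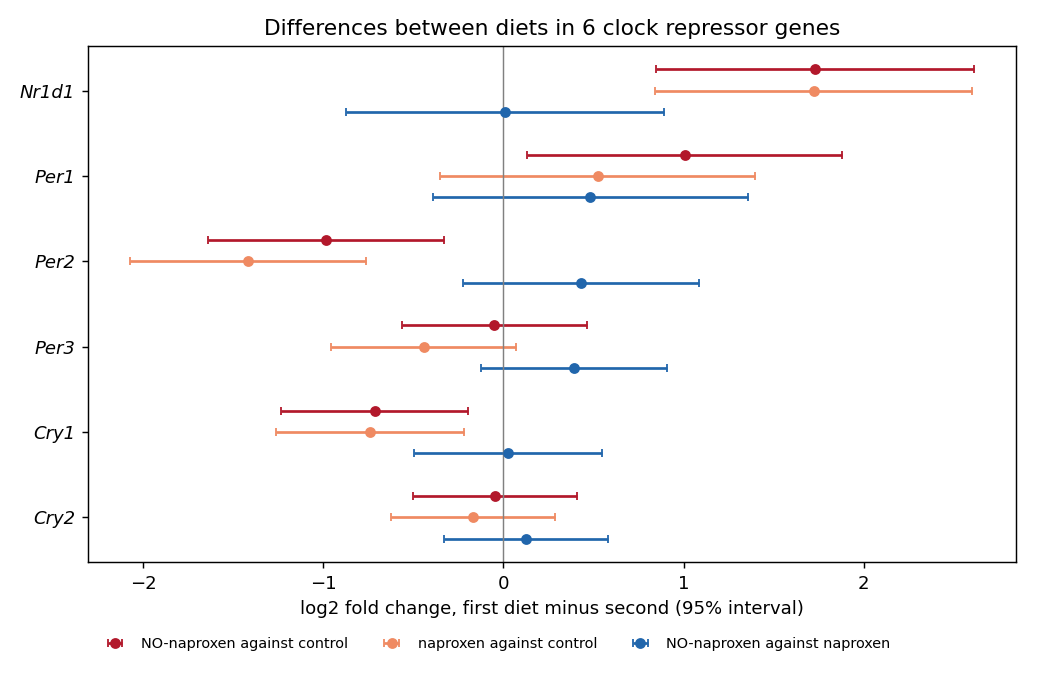
Log2 fold change of each gene (x axis) with its 95% interval from limma for NO-naproxen against control, naproxen against control and NO-naproxen against naproxen. Nr1d1 lies right of 0 and Per2 and Cry1 left of 0 against control with both drugs, while all 6 intervals between the drugs include 0.

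Between the drugs all 6 genes had intervals that include 0. For NO-naproxen against naproxen the log2 fold change was 0.01 for Nr1d1 (95% interval -0.87 to 0.89), 0.48 for Per1 (-0.39 to 1.36) and 0.43 for Per2 (-0.22 to 1.09). It was 0.39 for Per3 (-0.12 to 0.91), 0.03 for Cry1 (-0.49 to 0.55) and 0.12 for Cry2 (-0.33 to 0.58). Each interval reaches 0.55 or more on the log2 scale on at least 1 side, so the drugs are not shown to act alike on these genes, and their doses by weight differed. Arrays of the drugs overlapped for all 6 genes (they did not for 1.17% of all probe sets). In limma none of the 6 passed the adjusted threshold (0% of all probe sets), the unadjusted one (1.92%) or the criterion of the series (0.572%; 52.6% of those probe sets were higher after quantile normalization and 54.5% after centring, in place of 74.8%). These differences moved with single arrays. Without NO-naproxen replicate 4 Per3 was at 0.60 and met that criterion, and without NO-naproxen replicate 2 it was at 0.20. Per1 was at 0.26 without NO-naproxen replicate 2, Per2 at 0.25 without naproxen replicate 3, and Nr1d1 ran from -0.37 without NO-naproxen replicate 3 to 0.44 without NO-naproxen replicate 1. In order of mean level, Nr1d1 and Cry1 had both drugs side by side and controls apart. Per1 was highest with NO-naproxen, then naproxen, then control, and Per2 was lowest with naproxen, then NO-naproxen, then control. For both genes the interval between the drugs includes 0.

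Control replicate 1 decided much of the spread among controls for Nr1d1, Per1, Per2 and Cry1. For Per3 the control SD was 0.26 with it and 0.22 without, and for Cry2 0.41 and 0.38. This array lay outside the range of the other 3 controls for 6 of 6 genes and inside the range of the 8 drug livers for 6 of 6. It was nearer to the mean of the drug livers than to that of the other controls for 5 of 6, all but Per3. The lowest and the highest of any 4 arrays lie outside the range of the other 3. The share of all probe sets with such positions was not counted, so nothing is read from these counts. Relative to the mean of the other 3 controls it was 1.10 log2 units higher in Nr1d1, 2.06 higher in Per1 and 0.37 higher in Per3. The difference was -1.36 for Per2, where the SD among the other 3 was 0.10, -0.80 for Cry1 and -0.53 for Cry2. Over all probe sets this array had a mean Pearson r of 0.967 with the other controls, the highest of the 4 (the others 0.941 to 0.960). All 66 pairs of arrays, across diets too, had r of 0.908 to 0.981. Whether control replicate 1 was more like controls than drug livers over all probe sets was not tested. Its interquartile range of 2.09 log2 units lay within the control range of 1.94 to 2.37. Its label gives the same diet, tissue and strain as the other controls.

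Control replicate 1 was singled out by its values in these same genes. Smaller control SDs, wider differences and less overlap without it are therefore largely built in, and nothing is read from them. Without that array the control SD was 0.13 for Nr1d1, 0.10 for Per2, 0.28 for Per1 and 0.25 for Cry1. All 4 genes then had no overlap between drug and control livers, for NO-naproxen (6.12% of all probe sets) and for naproxen (7.20%). Nr1d1 was then 4.01-fold higher with NO-naproxen and 3.99-fold higher with naproxen. For NO-naproxen against control the log2 fold change was 1.52 for Per1, -1.33 for Per2 and -0.92 for Cry1. For naproxen against control it was -1.76 for Per2, -0.94 for Cry1 and 1.04 for Per1, in place of 0.52, and Per1 then met the criterion of the series. Per2 with naproxen passed the adjusted threshold in this setting (limma, adjusted p = 0.0362), as 1 of 3 probe sets. Over all its alternatives the adjusted p ran from 0.0362 to 1.00, the highest without the 2 arrays of narrowest spread. Leaving out any other array passed none of the 6 genes.

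**Figure D3:**
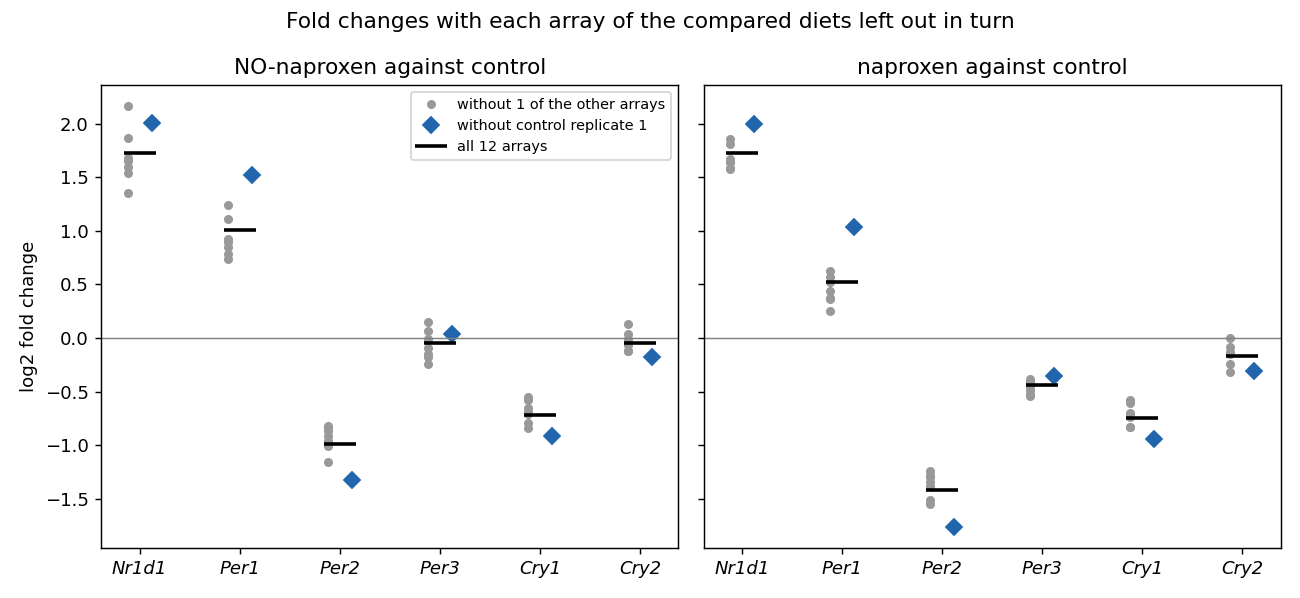
Log2 fold change against control (y axis) of 6 genes with all 12 arrays (black line), without control replicate 1 (diamond) and without each other array of the 2 diets compared (grey points). For Per1, Per2 and Cry1 the fold change farthest from 0 in both panels is the one without control replicate 1.

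The genes also varied together from rat to rat. Over the 12 arrays Nr1d1 ran against Cry1 (Pearson r = -0.86) and Per2 (-0.70) and with Per1 (0.69), and Per2 ran with Cry1 (0.88). These 4 values hold the difference between diets. After subtraction of each diet's mean, Per2 and Cry1 kept r = 0.79, Per1 and Per3 had 0.73, Nr1d1 and Per3 0.63, Nr1d1 and Per1 0.60, Nr1d1 and Cry1 -0.69 and Nr1d1 and Per2 -0.28. All 15 pairs come from the same 12 arrays and share their signal spread and control replicate 1, so they are given as a description. Within the NO-naproxen diet, replicates 2 and 3 had the higher Nr1d1, Per1, Per2 and Per3 of the 4 livers, and replicates 1 and 4 the lower.

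**Figure D4:**
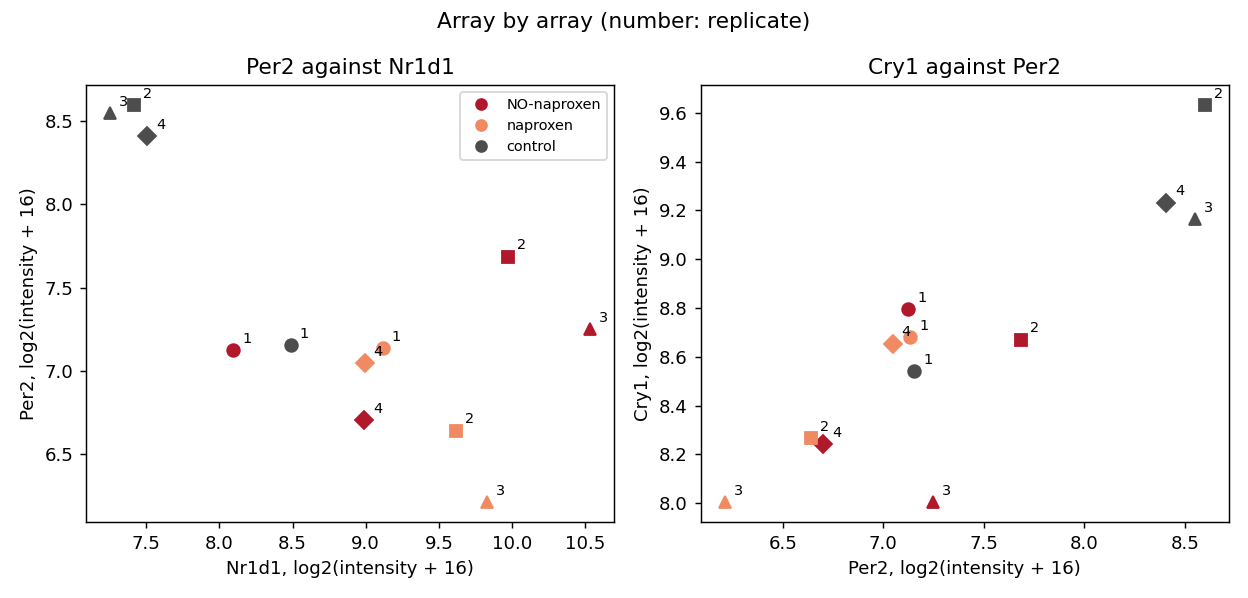
Per2 against Nr1d1 (left) and Cry1 against Per2 (right), each point 1 liver on the log2(intensity + 16) scale, coloured by diet and numbered by replicate. Control replicates 2, 3 and 4 form the corner of low Nr1d1, high Per2 and high Cry1, and control replicate 1 lies among the drug livers.

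Among 9827 other genes brighter than the olfactory receptor level, those whose values ran most like each repressor over the 12 arrays were named by Pearson r, again as a description that holds the diet difference. For Nr1d1 these were Upp2, a uridine phosphorylase (r = 0.97), Sh3bp5 (0.92) and the immediate early transcription factor Egr1 (0.91). Upp2 was also first by rank correlation (rho = 0.95). Most opposite to Nr1d1 were the kinase gene Sgk1 (-0.84) and Nat8 (-0.84). For Per2 the most alike were the glycerol-3-phosphate dehydrogenase Gpd1 (0.94), Sec14l2 (0.93) and G0s2, an inhibitor of fat breakdown (0.92), and the most opposite Rgs16, a regulator of G protein signalling (-0.89), and Depp1 (-0.83). For Cry1 they were Sgk1 (0.92), Paqr7 (0.87) and Sec14l2 (0.87), so that Sgk1 ran with Cry1 and against Nr1d1. For Per1 they were Tmem140 (0.91), the interleukin 6 receptor gene Il6r (0.90) and Zfp354a (0.90), and for Per3 Slc10a3 (0.89), Cmtm7 (0.87) and Cyp2d2 (0.86). Cry2 was most like Ppm1k, which encodes a mitochondrial phosphatase (r = 0.97), then Tcirg1 (0.89) and Rnf125 (0.88). After subtraction of the diet means Upp2 for Nr1d1 (r = 0.92), Zfp354a for Per1 (0.94) and Ppm1k for Cry2 (0.98) ranked 1 among the 9827 genes, and Sec14l2 for Per2 (0.95) ranked 2. Gpd1 (0.84) and G0s2 (0.82) then ranked 26 and 34 for Per2, and Sgk1 (0.85), Paqr7 (0.82) and Sec14l2 (0.80) ranked 27, 56 and 106 for Cry1. The opposite genes were at -0.66 for Sgk1 and -0.63 for Nat8 against Nr1d1, and at -0.70 for Rgs16 and -0.68 for Depp1 against Per2.

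The other clock genes were taken from 3 lists. Of 7 listed activators 5 were measured, and none passed the adjusted threshold or the criterion of the series with either drug. Over all probe sets 0% passed the adjusted threshold, and 3.8% passed the criterion with NO-naproxen and 5.85% with naproxen. At such shares lists this short can hold none, so nothing is read from the counts in these 3 lists. The median log2 fold change of the activators was 0.02 with NO-naproxen and 0.11 with naproxen. The values farthest from 0 relative to their error belonged to Npas2 and Rorb. Npas2 measured 0.47 ± 0.22 with NO-naproxen and 0.41 ± 0.22 with naproxen (log2 fold change, SE), and Rorb, a nuclear receptor of the ROR family that shares binding sites with REV-ERB, -0.41 ± 0.23 with NO-naproxen and -0.55 ± 0.23 with naproxen. Rorb gave little signal, as Per3 did, and its naproxen mean of 6.40 lay under the olfactory receptor level of 6.44. Bmal1, the classic target of REV-ERB alpha, had log2 fold changes of 0.02 ± 0.17 (SE) with NO-naproxen and 0.11 ± 0.17 (SE) with naproxen. Of 8 output and E-box repressor genes 6 were measured, with 1 above 0 and a median of -0.21 for NO-naproxen, and 0 above 0 and a median of -0.31 for naproxen. None passed either threshold. Dbp, an activator at D-boxes such as that of Per2, measured -0.26 ± 0.22 with NO-naproxen and -0.34 ± 0.22 with naproxen. Bhlhe40 measured -0.41 ± 0.20 with NO-naproxen, and Noct -0.57 ± 0.29 with naproxen. Of 11 genes in a list of clock kinases, ubiquitin ligases, corepressors and Timeless, 8 were measured and 0 passed either threshold. Their median was 0.16 for NO-naproxen and 0.13 for naproxen. Arrays did not overlap for 2 of the 8 with NO-naproxen, Btrc and Hdac3, both higher (3.35% of all probe sets). With naproxen that number was 0 (4.5% of all probe sets). Timeless measured -0.34 ± 0.20 with NO-naproxen and -0.33 ± 0.20 with naproxen, the casein kinase 2 gene Csnk2a1 0.36 ± 0.21 with NO-naproxen and Btrc 0.17 ± 0.14 with naproxen.

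Of 10 measured glucocorticoid-induced genes, a class that also includes Per1, 6 had positive log2 fold changes with NO-naproxen and 6 with naproxen, with medians of 0.32 and 0.25 in that order. None passed the adjusted threshold in limma. By the criterion of the series 1 was higher and 2 lower with NO-naproxen, where 3.8% of all probe sets passed (1.78% higher and 2.02% lower). With naproxen 3 were higher and 2 lower, where 5.85% passed (0.875% higher and 4.97% lower). The members, chosen after their values were seen, were the transcription factor Zbtb16 (1.50 ± 0.42 with NO-naproxen and 1.86 ± 0.42 with naproxen, log2 fold change and SE) and, with naproxen, Fkbp5 (0.84 ± 0.29) and Igfbp1 (0.80 ± 0.33) on the higher side. On the lower side stood the phosphatase gene Dusp1 (-1.38 ± 0.28 with NO-naproxen and -1.39 ± 0.28 with naproxen) and Sgk1 (-0.74 ± 0.26 with NO-naproxen and -0.85 ± 0.26 with naproxen). Of 4 measured genes for temperature and heat shock 0 passed the criterion with NO-naproxen and 1 with naproxen, Hsph1 at -0.60 ± 0.23, which was likewise named after its value was seen.

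The liver label was checked with 8 measured hepatocyte markers, all above the olfactory receptor level, whose summed intensity ran from 64784 to 75413 with NO-naproxen, 63344 to 68295 with naproxen and 63301 to 72077 in controls. Markers of Kupffer cells had positive log2 fold changes in 8 of 9 with NO-naproxen and 9 of 9 with naproxen, and their summed intensity ran from 4739 to 7360 with NO-naproxen, 4278 to 6118 with naproxen and 3834 to 5549 in controls. The sum of 3 endothelial markers, the only ones measured of 9 listed, was 1003 to 1277 with NO-naproxen, 1185 to 1300 with naproxen and 790 to 1123 in controls. That of 7 stellate markers was 3090 to 4175 with NO-naproxen, 3062 to 3982 with naproxen and 2382 to 3744 in controls. Log2 fold changes were positive for 3 of 3 endothelial markers with either drug, and for 6 of 7 stellate markers with NO-naproxen and 7 of 7 with naproxen. For hepatocyte markers they were positive in 4 of 8 with NO-naproxen and 3 of 8 with naproxen. Over all probe sets the median was 0.00044 with NO-naproxen and -0.03 with naproxen. By the series criterion the Kupffer marker Ptprc was higher with NO-naproxen (1.78% of all probe sets). The hepatocyte marker Tdo2 and the stellate marker Rgs5 were higher with naproxen (0.875%), and no marker was lower. Arrays of Tdo2, Rgs5 and Oit3 did not overlap controls with either drug (3.35% and 4.5% of all probe sets). No measured marker was listed at 0, and of the 3 cholangiocyte markers Epcam and Cftr were at or below the olfactory receptor level. The interquartile range of the arrays was 2.36 ± 0.23 log2 units with NO-naproxen, 2.34 ± 0.16 with naproxen and 2.10 ± 0.19 in controls (SD, n = 4 each). With it as a covariate the log2 fold change for NO-naproxen against control was 1.92 for Nr1d1, -1.14 for Per2, -0.98 for Cry1 and 0.82 for Per1. For naproxen against control it was 1.90 for Nr1d1, -1.56 for Per2, -0.99 for Cry1 and 0.35 for Per1. In this setting 3 genes met the series criterion with each drug. Of all 19418 probe sets 236 met it with NO-naproxen and 332 with naproxen. The part of the cell markers in these differences was not tested, and in whole liver a smaller share of cells and less RNA per cell cannot be told apart.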

How the data were processed

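Total RNA of 12 rat livers, cleared of ribosomal RNA, was labelled with biotin and hybridised to 12 arrays, per the labels. The values the authors deposited are linear probe set intensities for 19418 probe sets, for which the submitters' processing notes name Affymetrix Expression Console 1.1.1 and build rn4. The sources used here do not state the background correction, summary or normalization. Array medians ran from 89.8 to 118, so the arrays had not been brought to 1 distribution. From these intensities log2(intensity + 16) was computed, a scale that understates the differences of dim probe sets, and 5.87% to 11.1% of the values per array were under 16.

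Symbols came from the platform annotation, which gives 13327 probe sets 1 symbol, 620 several and 5471 none. Groups and replicate numbers came from the sample titles. A single model of limma 3.58.1 in R 4.3.3 (lmFit and eBayes, 2-sided tests) held the 12 arrays with the diets as groups, p-values were adjusted over all probe sets by Benjamini-Hochberg, and the median SE of a log2 fold change was 0.21, which the number of arrays limits. Overlap was judged array by array. The fit was tested on simulated data. Genes were named by a rule: the members, the 3 genes most like each, the 2 most opposite to Nr1d1 and Per2, and from each clock list those past the series criterion or else the 2 with the smallest p. Bmal1, a listed activator, was added by its role. The members, lists, tests and alternatives were chosen with earlier results of these data known. Replicate numbers are not tied to a litter or day by any label, and of 12 pairs of arrays with the same number 4 had deviations from their group means that correlated above 0.1 (range -0.38 to 0.48), so no pairing was used. Promoters came from RefSeq (GRCr8), with none printed for the remaining genes and no coordinates for probe sets, whose build differs. Alternatives were added constants of 1 and 64, quantile normalization, median centring, leaving out the dimmest 30% of probe sets, only the groups compared, a trended and robust prior, array weights, array spread as a covariate, leaving out the 2 arrays of narrowest spread, a fold of at least 2, the replicate number as a block and leaving out each array. Figures were drawn with matplotlib 3.10.9.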

Additional observations from a re-analysis of the deposited data

Results flagged for a closer look

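Per2 in control replicate 1 lay far from the other controls: its gap to the nearest of them, divided by the range of the 4 controls, was 0.869, above Dixon's critical value for 4 samples. It was the only one of 18 groups of 4 (6 genes in 3 diets) with such a value, and chance gives about 1 in 20. The ratio for the same array was 0.797 for Nr1d1, 0.760 for Per1, 0.572 for Cry1, 0.247 for Per3 and 0.185 for Cry2, all under the critical value.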

How the results depend on the processing

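Of 342 recomputed log2 fold changes of the 6 genes, 340 moved by no more than the spread between replicates, and 0 that met the series criterion changed sign. That spread is the SD limma gives each gene, a wide bar. Per1 with naproxen went from 0.52 to -0.0048 without the 2 arrays of narrowest spread and is counted as unmoved. Leaving out dim probe sets, only the groups compared, the other prior and the replicate block left every fold change as it was, and these are among the 342. The 2 that moved more were Nr1d1 (1.10 with array weights) and Cry2 (-0.35 with array spread as a covariate), both for NO-naproxen against control. Over the 11 alternatives that keep or reweight arrays or leave out the narrowest 2, Nr1d1 ran from 1.10 to 1.92 for NO-naproxen and 1.44 to 1.90 for naproxen against control, Per2 from -1.14 to -0.69 and -1.56 to -1.12, and Cry1 from -0.98 to -0.42 and -0.99 to -0.56. Genes past the series criterion for NO-naproxen against control numbered 4, but 2 at a fold of at least 2 (Nr1d1 and Per1), 2 with array weights (Nr1d1 and Per2), 3 with array spread as a covariate (all but Per1) and 1 without the 2 arrays of narrowest spread (Nr1d1). For naproxen they numbered 3, but 2 at a fold of at least 2 and 2 with array weights (Nr1d1 and Per2 in both). For naproxen, 1 gene in place of 2 had no overlap after median centring.

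Leaving out each array in turn gave 2 to 4 genes past the series criterion for NO-naproxen and 0 to 4 without overlap, 2 to 4 and 2 to 4 for naproxen, and 0 to 1 past the criterion between the drugs. The NO-naproxen count was 2 without NO-naproxen replicate 3 or control replicate 2, and 1 gene had no overlap without NO-naproxen replicate 1. The counts of 4 without overlap came without control replicate 1, where 6.12% of all probe sets had none for NO-naproxen and 7.20% for naproxen. For the other arrays left out that share is not given, so nothing is read from the counts. With each array left out in turn, the criterion gave 284 to 2570, 574 to 2973 and 98 to 331 over all probe sets, and the adjusted threshold 0 to 4, 0 to 3 and 0, for NO-naproxen against control, naproxen against control and NO-naproxen against naproxen in that order. In the same order, all probe sets past the criterion numbered 738, 1135 and 111. They were 154, 191 and 8 with a constant of 64. For the drugs against control they were 236 and 332 with array spread as a covariate and 215 and 291 without the 2 narrowest arrays. Array weights gave 2527 for NO-naproxen against control, with 2 past the adjusted threshold, and 304 between the drugs. A constant of 1 gave 299 between the drugs, and leaving out dim probe sets gave 40 there and 752 for naproxen against control. With the replicate number as a block these counts were 820, 1193 and 120, and 4, 3 and 0 of the 6 genes met the criterion, as without it. No cause of these shifts was tested, beyond fewer probe sets or arrays where some were left out. No gene had another probe set to try. With 4 arrays a diet, the 95% intervals of these genes reached 0.45 to 0.88 log2 units to either side.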
